A study of Mus musculus with 5 samples.

Results

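Cells carrying hashtag 7 or 8 were compared with cells carrying hashtags 1 to 6 in a single droplet library of T cells from the mediastinal lymph nodes, the nodes that drain the heart, of C57BL/6 mice. A hashtag is an antibody linked to a short DNA barcode (TotalSeq-C), so that cells of differently stained samples can be told apart after they are pooled. A cell was used when it had at least 200 detected genes, at most 10% mitochondrial transcripts (UMIs, counted molecules), 1 hashtag with at least 10 UMIs and at least 3 times the second, and no UMI of the B cell gene Cd79a. The 9120 such cells were split by their own transcripts into Foxp3-positive cells, other Cd4 cells and Cd8 cells, and 6195 of them fell into 1 of these 3 classes. Hashtags 7 and 8 held 2315 of the 6195 cells and hashtags 1 to 6 held 3880, out of 34095 cell barcodes in the whole series, which also has 2 heart libraries.

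The pool mixed mice of 2, 6, 12 and 18 months, stained per condition and sorted for high CD44, the surface marker of T cells that have met antigen. The cells were combined at different ratios after sorting, so cell numbers per hashtag do not measure the tissue. No label used here says which age carried which hashtag, so no age is given to a hashtag. All 8 hashtags therefore stayed samples without a group, and each value below is given per hashtag. Hashtags 7 and 8 were selected on the transcript sums of these same cells. The differences are a description for this reason, with no p value, and their counting error covers neither mice nor sorting.

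CD8 T cells kill infected or altered cells with granzymes and perforin and secrete chemokines, while CD4 T cells mostly act through cytokines and contact with other immune cells. Foxp3, the defining transcription factor of regulatory T cells, marks CD4 cells that restrain immune responses. T cells that have not yet met antigen recirculate through lymph nodes under homing receptors such as Ccr7. After activation, T cells lose part of that programme, gain effector molecules and migration genes, and clones that share a receptor sequence can grow.

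The barcodes that define the compared samples are shown because every group below rests on telling them apart, and the capitals are the whole barcode as listed with the count matrix.
Hashtag 7: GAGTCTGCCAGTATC
Hashtag 8: TATAGAACGCCAGGC
Hashtag 1: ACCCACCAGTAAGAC
Hashtag 2: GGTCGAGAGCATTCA
Hashtag 3: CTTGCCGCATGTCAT
Hashtag 4: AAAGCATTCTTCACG
Hashtag 5: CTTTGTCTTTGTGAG
Hashtag 6: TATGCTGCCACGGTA
Each barcode is 15 bases long. Hashtag 7 differs from its nearest neighbour, hashtag 6, at 7 positions, and hashtag 8 differs from its nearest, also hashtag 6, at 9 positions. The top hashtag had a median of 196 and 105 times the UMIs of the second in cells of hashtags 7 and 8, and 51.8 to 162 times in hashtags 1 to 6. Across the library, 577 cells had a top hashtag between 3 and 4 times the second and 899 cells fell just short, between 2 and 3 times.

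The classes held 1334 Cd8 cells, 708 other Cd4 cells and 273 Foxp3-positive cells in hashtags 7 and 8, against 2106, 970 and 804 in hashtags 1 to 6. The 6 T cell markers (Cd3d, Cd3e, Cd3g, Trac, Cd247, Lck) were all detected in each class. The B cell list (9 genes) summed to 219.8 and 179.9 CPM in Cd8 cells of hashtags 7 and 8 and to 230 to 274 CPM in hashtags 1 to 6. It was at 277 and 457 against 305 to 505 CPM in other Cd4 cells, and at 584 and 704 against 447 to 819 CPM in Foxp3-positive cells. Myeloid markers (9 genes) summed to at most 1061, 1292 and 998 CPM in hashtags 1 to 6, in Cd8, other Cd4 and Foxp3-positive cells in turn. In hashtags 7 and 8 they were at 496 and 459, 398 and 717, and 249 and 279 CPM. Gamma delta T cell markers (7 genes, Sox13 at 0) summed to 67.8 and 69.3 CPM against 17.7 to 35.7 CPM in Cd8 cells, and their part in the results was not tested. Cd8 cells of hashtags 7 and 8 were also shallower, with medians of 3234.5 and 3526 UMIs against 3936 to 5291. UMIs of the Y-linked genes Ddx3y, Eif2s3y, Uty and Kdm5d were found in 3.61% and 7.08% of cells of hashtags 7 and 8 and in 11.2% to 34.4% of cells of hashtags 1 to 6. Sex-linked transcripts and depth thus moved with the comparison, and each class below has its values at equal depth and in cells with Xist and no Y-linked UMI.

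In Cd8 cells, hashtags 7 and 8 held much more Gzmk, Ccl5, Tigit and other effector and inhibitory receptor transcripts and less Igfbp4, Dapl1 and Ccr7. A gene was called higher when both hashtags lay above the highest of hashtags 1 to 6 and the mean CPM (the gene's summed UMIs scaled to the total of that hashtag and class) differed by at least 1.5-fold, and lower by the mirror rule. Of 9626 genes with at least 50 UMIs, 442 were called higher (4.59%) and 164 lower (1.7%). The median log2 ratio over all these genes was 0.06.

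Gzmk, which encodes granzyme K, a serine protease of cytotoxic granules, was at 819 and 390.0 CPM in Cd8 cells of hashtags 7 and 8, against 20.2 to 216 CPM (median 39.3) in hashtags 1 to 6. The log2 ratio of the means was 2.87 (counting standard error 0.06), a 7.32-fold difference. Hashtags 5 and 6 came nearest, and hashtag 8 still held more than either. The annotated Gzmk gene (chromosome 13, 113171608 to 113225908, minus strand, GRCm38) spans the whole of Esm1 on the opposite strand. No label used here states whether the counting took strand into account. If it did not, reads within the 8440 shared bases cannot be told apart by gene.

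Ccl5, a chemokine that draws T cells and monocytes, reached 16676 and 13923 CPM in Cd8 cells of hashtags 7 and 8 and 1321 to 7169 CPM in hashtags 1 to 6 (log2 ratio 1.956, counting standard error 0.01). Both hashtags were above every other one. Nkg7, a granule membrane protein of killer cells, was at 2150.3 and 1948 CPM against 843 to 1505 CPM, and the pore-forming perforin gene Prf1 at 131 and 114 CPM against 57.2 to 94.7 CPM.

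Of the 24 effector and cytotoxic genes, all measured, 11 were called higher and none lower, with a median log2 ratio of 1.19. Beside those named, Cst7, Id2, Zeb2, Prdm1, Ifng, Ccl3 and Ccl4 were called. Id2, a regulator of effector differentiation, was at 199 and 293 CPM against 70.2 to 149 CPM. Ifng, the gene of interferon gamma, was low everywhere, at 12.4 and 11.6 CPM in hashtags 7 and 8 against 2.93 to 6.00 CPM, and 5 cells gave 30.6% of its UMIs in hashtags 7 and 8. The chemokine genes Ccl3 and Ccl4 were carried by few cells as well, with 44.5% and 52.9% of their UMIs in 5 cells. The transcription factor genes did not move alike. Tbx21 was at 64.3 and 61.1 CPM in hashtags 7 and 8, inside the 34.4 to 79.0 CPM of hashtags 1 to 6, and Eomes at 268 and 194 CPM was not called because hashtag 6 had 196 CPM.

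**Figure D1:**
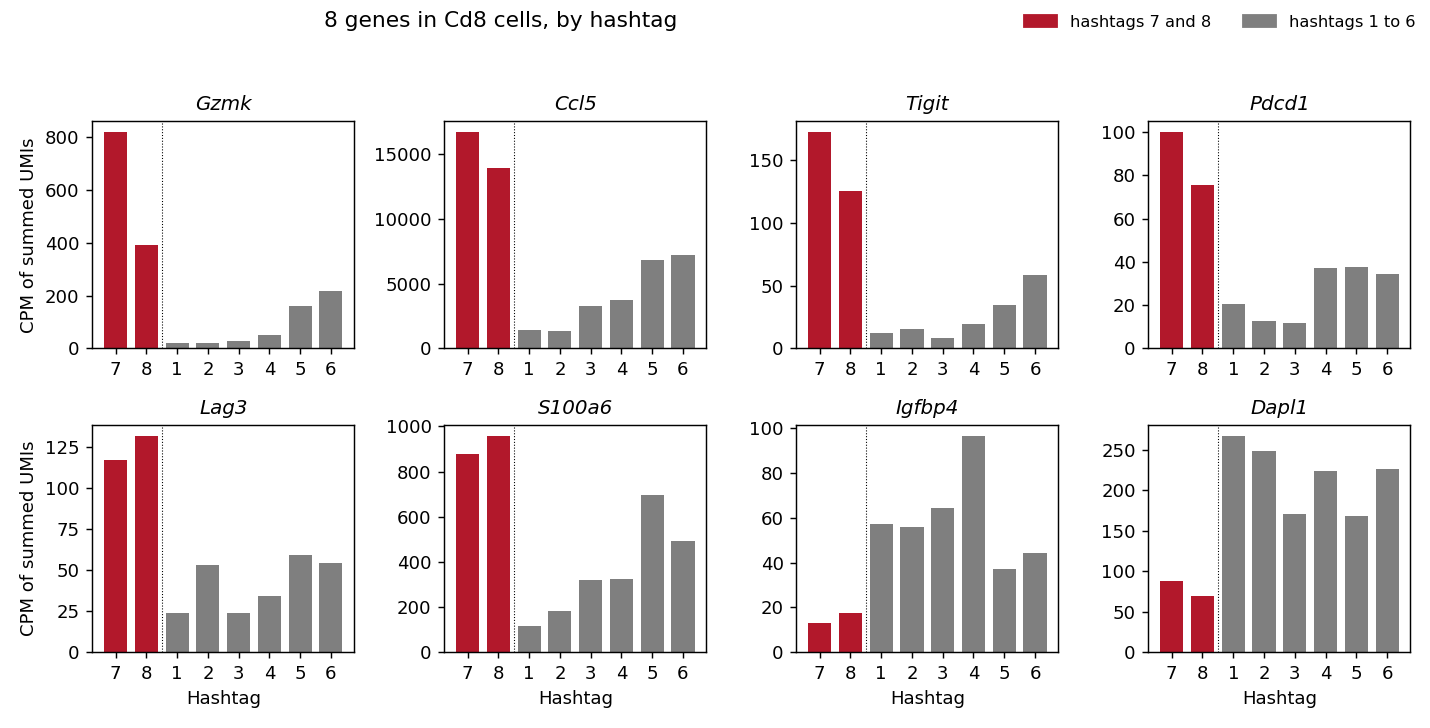
CPM of summed UMIs (y axis, from 0, a scale per gene) in Cd8 cells of each hashtag (x axis), with hashtags 7 and 8 in red left of the dotted line and hashtags 1 to 6 in grey; each bar is 1 hashtag and has no replicate error. In Gzmk, Ccl5, Tigit, Pdcd1, Lag3 and S100a6 both red bars exceed all grey bars, and in Igfbp4 and Dapl1 both lie below all of them.

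Inhibitory receptors dampen signalling in T cells that are stimulated for long. In Cd8 cells, 5 of 12 measured checkpoint genes were called higher and 1 lower, with a median log2 ratio of 1.01. Tigit was at 172 and 125 CPM in hashtags 7 and 8 against 8.19 to 58.1 CPM (median 17.3) in hashtags 1 to 6, a 6.04-fold difference. Pdcd1, the gene of PD-1, was at 99.995 and 75.5 CPM against 11.7 to 37.5 CPM, and Lag3 at 117 and 132 CPM against 24.0 to 59.1 CPM. Hashtags 7 and 8 differed from each other by less than from any of the other 6 in Lag3. Ctla4 and Entpd1 were the other genes called higher. The one called lower was Cd200, at 9.30 and 8.90 CPM against 11.8 to 26.7 CPM. Tox, a transcription factor of chronically stimulated T cells, was at 189.5 and 98.7 CPM against 46.8 to 99.6 CPM and was not called, since hashtag 6 exceeded hashtag 8.

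The highest ratio among Cd8 cell genes with at least 100 UMIs and 50 CPM on 1 side was that of Ier3, a stress and activation response gene, at 233 and 102 CPM against 8.56 to 51.2 CPM (log2 ratio 2.96). Gzmk, Tigit, Ccl3, Maf, Penk, Ccl5, Ccl4, Serpina3g and Casp1 followed. Of these, Ier3, Tigit, Ccl3, Maf, Penk, Serpina3g and Casp1 met the 50 CPM limit through hashtags 7 and 8 alone. Maf, a transcription factor, was at 67.8 and 35.2 CPM against 5.40 to 16.6 CPM. Casp1, the inflammasome protease, was at 72.1 and 48.8 CPM against 3.42 to 32.5 CPM, and the protease inhibitor gene Serpina3g at 151 and 134 CPM against 8.56 to 78.8 CPM. Serpina3g has close paralogs, so its counts are uncertain. S100a6, a calcium-binding protein of memory T cells, was at 877 and 957 CPM against 117 to 696 CPM. The memory and migration list had 4 of 17 genes called higher, all of them S100 genes, and 1 lower (Lmna), with a median of 0.32. Of 8 measured follicular helper genes, 4 (Sh2d1a, Tox2, Asb2 and Tbc1d4) were called higher in Cd8 cells, with a median of 1.05.

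Genes of recirculating T cells were lower in part. Igfbp4, a gene used to mark naive T cells, was at 13.2 and 17.4 CPM in Cd8 cells of hashtags 7 and 8 against 37.0 to 96.6 CPM (median 56.6) in hashtags 1 to 6, a log2 ratio of -1.95 (counting standard error 0.17). Dapl1 was at 88.0 and 69.3 CPM against 169 to 267 CPM. Ccr7, the lymph node homing receptor, was at 126 and 150.1 CPM against 209 to 274 CPM. With Actn1 these made 4 of 14 genes of the naive and recirculation list, whose median was -0.35. Tcf7, a transcription factor of naive and memory T cells, did not follow, at 278 and 238 CPM against 216 to 258 CPM, which overlap. Il7r, the receptor of the survival cytokine interleukin 7, went the other way, at 855 and 710.4 CPM against 279.6 to 595 CPM.

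The remaining strongly lower genes of Cd8 cells were Tmem108, Rgcc, Dctpp1, Ppa1, Srm, Timm8a1 and Treml2, with log2 ratios between -1.45 and -0.88. Srm (spermidine synthase), Ppa1 (inorganic pyrophosphatase) and Dctpp1 (a nucleotide pyrophosphatase) are metabolic enzymes, and Timm8a1 serves protein import into mitochondria. Srm was at 45.7 and 76.2 CPM against 95.4 to 152 CPM. The mitochondrial chaperonin genes Hspd1 and Hspe1, which overlap head to head by 112 bases, were called lower as well. Hspd1 was at 149.6 and 201 CPM against 206 to 393 CPM.

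The leading Cd8 differences kept their direction at equal depth and among cells with Xist and no Y-linked UMI. For equal depth, cells with at least 1000 UMIs were thinned to 1000 UMIs and cells with fewer were left out. The log2 ratios were then 2.51 for Gzmk, 1.81 for Ccl5, 2.34 for Tigit, -1.44 for Igfbp4 and -1.36 for Dapl1. All but Igfbp4 were still called. In cells with Xist and no Y-linked UMI the ratios were 2.96 for Gzmk, 1.97 for Ccl5, 2.73 for Tigit, -2.09 for Igfbp4 and -2.04 for Dapl1, again with all but Igfbp4 called. Hashtag 2 had 19 such Cd8 cells. In Cd8 cells without a Gzmk UMI, the Ccl5 ratio was 1.51 and that of Tigit 0.87, both called. Pdcd1 at 0.87, Lag3 at 0.31 and Ccr7 at -0.34 were not called in those cells, and the ratios of Ccl3 and Ccl4 were -0.44 and -0.38. The median of the effector list there was 0.42.

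The share of cells with a Gzmk UMI gave the same order in Cd8 cells. At 1000 UMIs per cell, 47.2% of Cd8 cells of hashtag 7 (95% Clopper-Pearson interval 43.2% to 51.2%, 619 cells) and 27.3% of hashtag 8 (23.5% to 31.3%, 521 cells) had a Gzmk UMI, against 2.40% to 16.3% in hashtags 1 to 6. Without thinning the shares were 62.3% and 37.7% against 3.73% to 27.1%. B cells should lack Gzmk, and of 489 cells with at least 2 Cd79a UMIs, a further B cell gene and no UMI of Cd3d, Cd3e, Cd3g or Trac, 4 had a Gzmk UMI without thinning (0.818%; median depth 3646 UMIs). None of the 34 such cells in hashtag 7 had one, which allows a share of up to 8.82%. Ccl5 was found in 14.5% of those B cells, so a low share of Ccl5-positive cells cannot be read as expression. Among all 1072 Cd79a-positive cells, 48.6% also carried a T cell UMI, and doublets that share 1 hashtag were not removed.

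In other Cd4 cells, Esm1, Ier3, Ccl4, Gzmk and Eomes had the highest called ratios among genes with at least 100 UMIs and 50 CPM on 1 side, each with more in hashtag 7 than in hashtag 8, and the naive genes Igfbp4, Dapl1, Satb1 and Ccr7 were lower in both hashtags. Hashtags 7 and 8 held 149 of the 163 Esm1 UMIs, 171 of 193 for Ier3 and 313 of 360 for Ccl4. For Eomes they held 348 of 428, and for Arsb, also among the 10 highest, 149 of 228. Esm1, Ier3, Ccl4, Eomes and Arsb thus passed the limit of 100 UMIs through the hashtags where they were high. Of the 10 highest, all but Gzmk and Tspan3 also met the 50 CPM limit through those hashtags alone. Of 8631 genes, 172 were called higher (1.99%) and 155 lower (1.8%), with a median of -0.00 over all genes. Gzmk was at 1144 and 220.0 CPM in hashtags 7 and 8, against 2.24 to 200.5 CPM (median 47.8) in hashtags 1 to 6, a log2 ratio of 3.12 (counting standard error 0.09). Hashtag 7 stood far above all others, while hashtag 8 lay just above hashtag 5. Without hashtag 7 the log2 ratio was 1.49.

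Eomes, a transcription factor of cytotoxic T cells, followed Gzmk, with 216 and 47.6 CPM in other Cd4 cells of hashtags 7 and 8 against 7.55 to 44.2 CPM. Esm1 was at 88.4 and 24.6 CPM against 0 to 8.84 CPM, and since the whole gene lies within Gzmk, its UMIs may belong to Gzmk transcripts. Ccl5 was at 7156 and 1094 CPM against 255 to 1801 CPM, above the others in hashtag 7 alone, and was not called. In all, 7 of 20 measured effector genes were called higher (Gzmk, Ccl3, Ccl4, Cst7, Tbx21, Eomes and Prdm1) and none lower, with a median of 0.92. Prdm1 had just 50 UMIs, 36 of them in hashtags 7 and 8. It so passed the limit of 50 UMIs through the hashtags where it was high. Ccl3, with 93 of 117 UMIs there, and Ccl4, with 313 of 360, did so too. Of the Ccl4 UMIs in hashtags 7 and 8, 77.0% came from 5 cells. Ifng was at 21.7 and 38.1 CPM against 12.2 to 56.0 CPM, inside the range of the other hashtags. In other Cd4 cells without a Gzmk UMI the ratio of Eomes was 0.30 and that of Ccl5 0.19, neither called, and the effector median was 0.19.

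The remaining leading higher genes of other Cd4 cells were Ier3, Socs3, Myo1f, Arsb, Serpina3g and Tspan3. Socs3, a suppressor of cytokine signalling, had more in hashtag 8 than in hashtag 7, at 56.2 and 114 CPM in hashtags 7 and 8 against 5.40 to 45.9 CPM. Ier3 was at 106 and 23.8 CPM against 1.51 to 13.3 CPM. S100a6, S100a10, S100a11 and Anxa2 made 4 of 17 memory and migration genes called higher, none lower. S100a6 was at 1188 and 1366 CPM against 237 to 961 CPM.

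**Figure D2:**
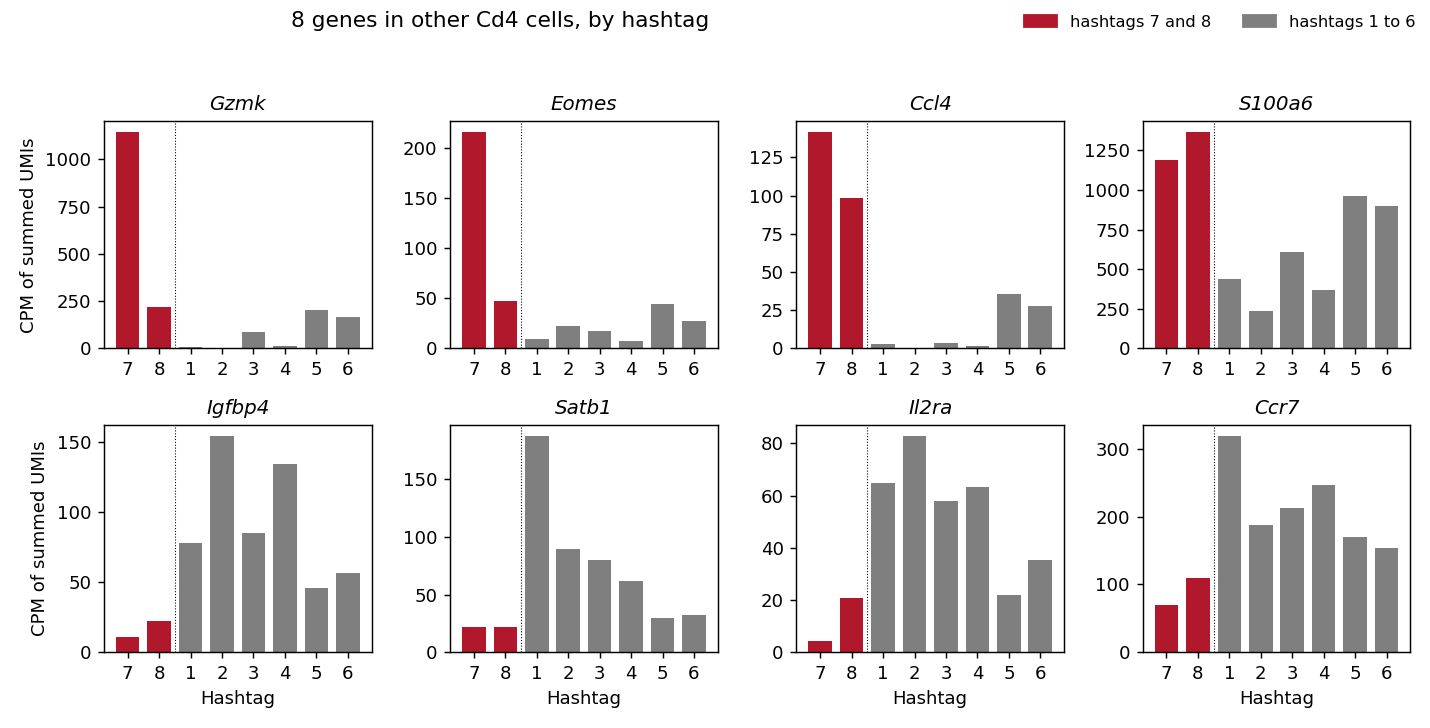
CPM of summed UMIs (y axis, from 0, a scale per gene) in other Cd4 cells of each hashtag (x axis), with hashtags 7 and 8 in red left of the dotted line and hashtags 1 to 6 in grey; each bar is 1 hashtag and has no replicate error. Gzmk and Eomes stand out in hashtag 7 (1144 and 216 CPM), while Igfbp4, Satb1, Il2ra and Ccr7 are below every grey bar in both red hashtags.

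Of 13 measured naive and recirculation genes in other Cd4 cells, 7 were called lower and 1 (Il7r) higher, with a median of -0.62. Igfbp4 was at 11.2 and 22.2 CPM in hashtags 7 and 8 against 45.7 to 155 CPM (median 81.7), a log2 ratio of -2.47 (counting standard error 0.23). Satb1, a chromatin organiser of T cells, was at 21.7 and 22.2 CPM against 29.5 to 188 CPM, and Ccr7 at 69.7 and 109.6 CPM against 153 to 319 CPM. Hashtags 5 and 6 were the nearest to hashtags 7 and 8 in Igfbp4 and Satb1. Dapl1, Bach2, Foxp1 and Actn1 were the others called lower.

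A few genes of the regulatory list were also lower among Cd4 cells with no Foxp3 UMI. Il2ra, the alpha chain of the interleukin 2 receptor, was at 4.49 and 20.6 CPM in hashtags 7 and 8 against 22.1 to 82.9 CPM in hashtags 1 to 6. Ikzf4 was at 15.7 and 9.53 CPM against 26.5 to 44.8 CPM, and Ebi3, a cytokine subunit, at 9.74 and 12.7 CPM against 25.7 to 69.4 CPM. These made 3 of 18 measured genes of the regulatory list called lower, none higher, with a median of -0.13. A Cd4 cell in which no Foxp3 UMI was caught falls in this class, and how many such cells it held was not tested. Ccr6, a chemokine receptor, was at 3.0 and 11.1 CPM against 23.8 to 112 CPM. Myc, a growth regulator, was at 18 and 23 CPM against 30.6 to 219 CPM, and Lta, a lymphotoxin gene, at 19.5 and 28.6 CPM against 55.1 to 158 CPM. Ckb and Rgcc completed the 10 lowest among genes with at least 100 UMIs and 50 CPM on 1 side, a limit that Ccr6 and Ebi3 did not meet.

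Fewer calls held in other Cd4 cells than in Cd8 cells at equal depth and by sex-linked transcripts. At 1000 UMIs per cell, Gzmk (2.75), Igfbp4 (-2.89), Dapl1 (-2.87), Ccr7 (-1.42) and S100a6 (1.20) were still called. Among cells with Xist and no Y-linked UMI, Gzmk (3.71), Dapl1 (-3.63), Ccr7 (-1.19) and S100a6 (1.16) were, and Igfbp4 (-3.53) was not. Eomes, Ier3, Ccl4, Il2ra, Ikzf4, Ebi3, Ccr6, Myc and Satb1 kept their sign but were called in neither, with Eomes at 2.88 and 3.30, Il2ra at -1.97 and -1.77, and Ebi3 at -2.64 and -0.64. Esm1 was not called at 1000 UMIs.

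Genes of follicular helper cells, which assist B cells, split hashtags 7 and 8. Pdcd1 was at 227 CPM in hashtag 7 and 607 CPM in hashtag 8, against 117 to 556 CPM in hashtags 1 to 6. Il21 was at 20.2 and 94.5 CPM against 0 to 56.7 CPM, and Bcl6 at 12.7 and 46.1 CPM against 13.4 to 39.8 CPM. In all 3 genes hashtag 8 lay above the other hashtags and hashtag 7 within or below them. None of the 12 follicular helper genes and none of the 11 measured checkpoint genes was called in other Cd4 cells. The median of the follicular list was 0.69, and without hashtag 8 it was -0.07.

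In Foxp3-positive cells, Foxp3 and Ikzf2 overlapped between the hashtags, while Lag3, Il1r2 and Cxcr3 were higher and Ccr6, Ikzf4 and Il2ra lower in hashtags 7 and 8. Of 7515 genes, 164 were called higher (2.18%) and 177 lower (2.36%), with a median of -0.02 over all genes. Foxp3 itself, which chose the cells, was at 603 and 490.4 CPM in hashtags 7 and 8 and 513 to 625 CPM in hashtags 1 to 6. Ikzf2, the gene of Helios, was at 529 and 593 CPM against 478 to 670.0 CPM. Hashtag 7 had 106 of these cells and hashtag 8 had 167, so single cells weigh heavily.

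Lag3, an inhibitory receptor through which regulatory T cells also act, was at 199 and 337 CPM in Foxp3-positive cells of hashtags 7 and 8 against 31.0 to 138 CPM (median 70.5) in hashtags 1 to 6, a log2 ratio of 1.72 (counting standard error 0.12). Il1r2, a decoy receptor for interleukin 1, was at 291 and 253 CPM against 34.3 to 170.3 CPM. Cxcr3, a chemokine receptor of T cells recruited to type 1 inflammation, was at 266 and 207 CPM against 56.0 to 151 CPM. In these 3 genes both hashtags exceeded all others. Id2, Cdk6 and Serpina3g were also called higher, with log2 ratios between 1.25 and 1.39. Lag3 was the only one of 11 measured checkpoint genes called. Areg, a tissue repair growth factor of regulatory T cells, was at 64.0 and 32.9 CPM against 5.63 to 32.2 CPM, with hashtag 8 barely above hashtag 6. With Maf it made 2 of 21 regulatory genes called higher, beside 2.18% of all genes.

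Ccr6, the receptor for Ccl20, was at 24.6 and 27.4 CPM in Foxp3-positive cells of hashtags 7 and 8 against 56.3 to 117 CPM (median 91.8), a log2 ratio of -1.77 (counting standard error 0.29). Ikzf4, the gene of Eos, a partner of Foxp3, was at 64.0 and 53.4 CPM against 110.2 to 146 CPM. Il2ra was at 121 and 133 CPM against 157 to 309.8 CPM. Both hashtags were below all others in all 3 genes. Ikzf4 and Il2ra were the 2 of 21 regulatory genes called lower, beside 2.36% of all genes. Bach2, Foxp1 and Actn1 were the 3 of 13 naive genes called lower, and Il7r was again higher. Apol9b, Rnf213, Parp3, Lta, Endod1, Ramp1 and Fam111a completed the 10 lowest among genes with at least 100 UMIs and 50 CPM on 1 side, with log2 ratios between -1.29 and -0.91, and Bach2, at -1.91, did not meet that limit. Apol9b has a close paralog, and its counts are uncertain.

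**Figure D3:**
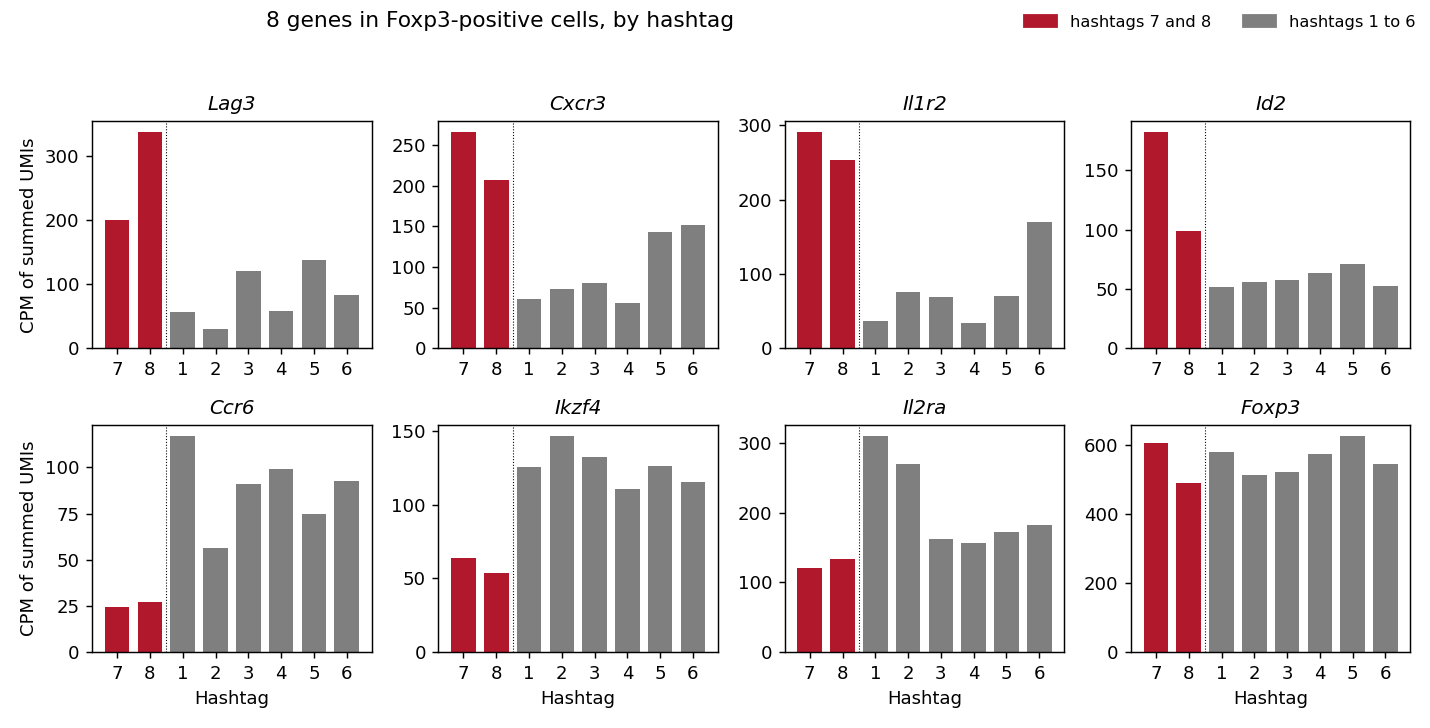
CPM of summed UMIs (y axis, from 0, a scale per gene) in Foxp3-positive cells of each hashtag (x axis), with hashtags 7 and 8 in red left of the dotted line and hashtags 1 to 6 in grey; each bar is 1 hashtag and has no replicate error. Lag3, Il1r2, Cxcr3 and Id2 are higher and Ccr6, Ikzf4 and Il2ra lower in both red hashtags than in any grey one, while Foxp3 is level.

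Part of the effector transcripts in Foxp3-positive cells were concentrated in few cells. Cst7 and Id2 were less so, found in 153 and 70 of the 273 cells of hashtags 7 and 8. There, 5 cells gave 12.7% and 24.7% of their UMIs. Gzmk was at 345 and 38.4 CPM in hashtags 7 and 8 against 0 to 23.7 CPM, and 47.6% of its UMIs in those hashtags lay in 5 cells. At 1000 UMIs per cell, 10.6% of Foxp3-positive cells of hashtag 7 (4.96% to 19.2%) and 0.667% of hashtag 8 (0.0169% to 3.66%) had a Gzmk UMI, against 0% to 3.20%. Cd79a-positive cells of hashtag 7 had one in 15.9%, so the share in Foxp3-positive cells of hashtag 7 is not read as expression. Of the Foxp3-positive cells, 209 also had a Cd8a or Cd8b1 UMI. They were 74 of the 273 cells of hashtags 7 and 8 and 135 of the 804 of hashtags 1 to 6. Without those 209 cells, Gzmk and Ccl5 were no longer called. Their log2 ratios were then 4.38 and 2.17, and 4.12 and 2.83 with those cells. Under the same restriction Lag3, Il1r2, Cxcr3, Ccr6 and Ikzf4 stayed called, with log2 ratios of 1.83, 2.05, 1.58, -1.83 and -1.14. Fscn1 and Tmem176b were also among the 10 highest, with no Fscn1 UMI outside 5 cells and 89.8% of the Tmem176b UMIs in 5 cells. Their ratios were -3.85 and -0.89 without the cells with Cd8 UMIs. With 88 of 121 and 98 of 166 UMIs in hashtags 7 and 8, both passed the limits of 100 UMIs and 50 CPM through these hashtags. So did Gzmk, with 168 of 203 UMIs. In cells with Xist and no Y-linked UMI, Lag3 was at 2.04, Cxcr3 at 0.99, Ccr6 at -1.90 and Ikzf4 at -0.94 on the log2 scale, all called, and Il1r2 at 1.06 was not. Hashtag 2 had 6 such Foxp3-positive cells. At 1000 UMIs per cell, Il1r2 (2.18), Cxcr3 (1.15) and Ccr6 (-2.45) were still called, while Lag3 (1.99), Ikzf4 (-1.07), Il2ra (-0.43), Id2 (1.005) and Cdk6 (0.53) were not.

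Set beside each other, 11 of 24 measured effector genes in Cd8 cells, 7 of 20 in other Cd4 cells and 6 of 14 in Foxp3-positive cells were called higher, and 4 of 14, 7 of 13 and 3 of 13 naive genes lower, with Il7r higher in each class. Over all genes, 4.59%, 1.99% and 2.18% were called higher and 1.7%, 1.8% and 2.36% lower, in the same order. Prdm1 and Ifng in Cd8 cells, and Ccl3, Ccl4 and Prdm1 in other Cd4 cells, passed the UMI limit through hashtags 7 and 8. So did Gzmk, Gzmm (30 of 51 UMIs) and Prf1 (24 of 58) in Foxp3-positive cells. They enter the counts and medians. The effector medians were 1.19 in Cd8 cells, 0.92 in other Cd4 cells and 0.97 in Foxp3-positive cells, against 0.06, -0.00 and -0.02 for all genes. Without cells with a Cd8 UMI, Cst7 and Id2 stayed called in Foxp3-positive cells, and Gzmk, Ccl5, Gzmm and Prf1 did not. Checkpoint medians were 1.01, 0.10 and 0.15 in the same order. The difference between classes was not tested. Heat shock genes had medians of -0.56, -0.70 and -0.55, with 2 of 8, 1 of 8 and 1 of 7 measured genes called lower. Cell cycle genes had medians of -0.65, -0.34 and -0.12, with Tuba1b called lower in Cd8 cells and Birc5 higher in Foxp3-positive cells, where 96.3% of its UMIs lay in 5 cells. Among the 6 MHC class I genes, H2-Q7, which has close paralogs, was called higher in Cd8 cells, and the medians were 0.37, 0.17 and 0.25.

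**Figure D4:**
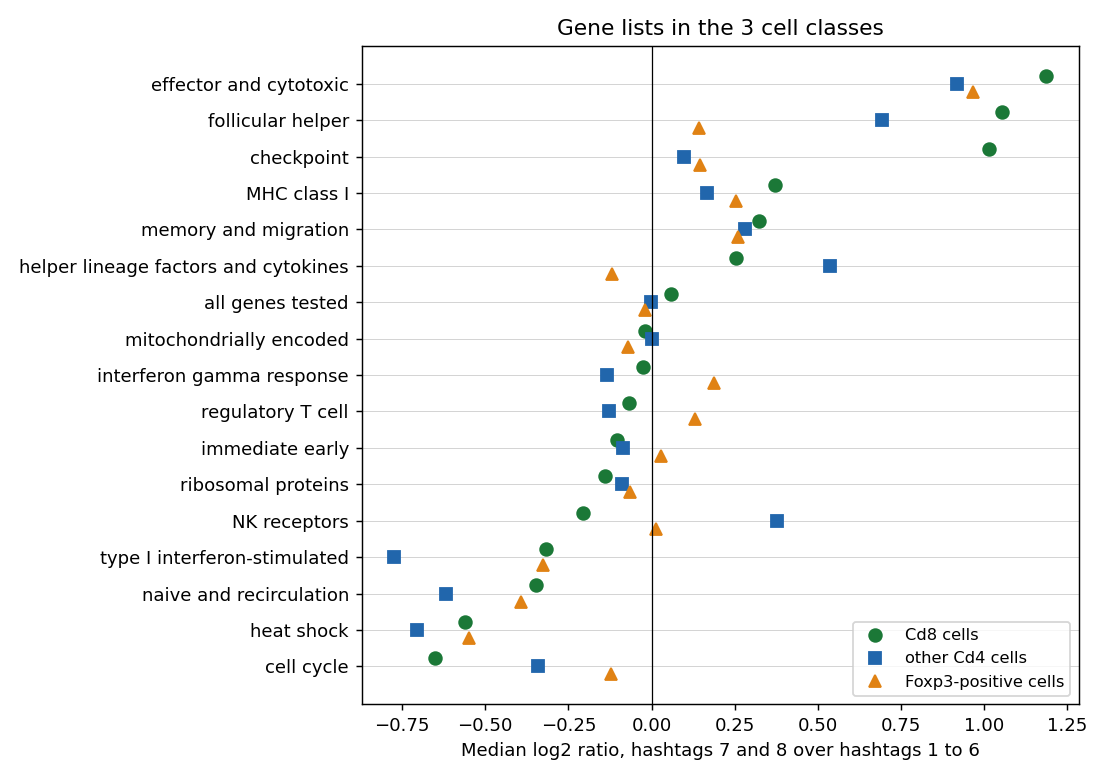
Median log2 ratio of mean CPM, hashtags 7 and 8 over hashtags 1 to 6 (x axis), for each gene list (y axis) in Cd8 cells (green circles), other Cd4 cells (blue squares) and Foxp3-positive cells (orange triangles); no error is drawn. The effector list lies between 0.92 and 1.19 in all 3 classes, the checkpoint list reaches 1.01 in Cd8 cells alone, and the interferon gamma response list lies between -0.13 and 0.19.

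Genes known to be induced by interferon gamma were close to level. Of 21 measured in each class, 2 were called higher in Cd8 cells (Gbp3 and Gbp5), none in other Cd4 cells and 1 (Gbp3) in Foxp3-positive cells. None was called lower. The shares of all genes called higher were 4.59%, 1.99% and 2.18% in the same order, and 1.7%, 1.8% and 2.36% were called lower. The medians of the list were -0.03, -0.13 and 0.19. Gbp3, an interferon-induced GTPase, was at 36.8 and 32.5 CPM in Cd8 cells of hashtags 7 and 8 against 11.7 to 23.5 CPM. Type I interferon-stimulated genes had medians of -0.32, -0.77 and -0.32 with no gene called, and these rested on hashtag 1. Isg15 was at 46.4 and 122 CPM in other Cd4 cells of hashtags 7 and 8, and at 756 CPM in hashtag 1 against 31.4 to 143 CPM in hashtags 2 to 6. Without hashtag 1 the 3 medians were 0.11, 0.21 and 0.41.

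T cell receptor contigs, read from the same cells, were not used to choose the genes above. Cell Ranger joins cells with the same receptor chains into a clonotype, and 5181 of the 6195 cells (83.6%) had one. Cells that shared a receptor within 1 hashtag made a larger share of Cd8 and other Cd4 cells in hashtags 7 and 8. At equal cell numbers this did not hold for other Cd4 cells of hashtag 8. In Cd8 cells, 40% of cells in hashtag 7 (36.1% to 44.0%, 600 cells) and 46.2% in hashtag 8 (41.7% to 50.8%, 476 cells) shared their clonotype with another cell of the same hashtag and class. In hashtags 1 to 6 the share was 6.84% to 16.1%. The groups did not overlap, and hashtags 5 and 6 again came nearest.

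**Figure D5:**
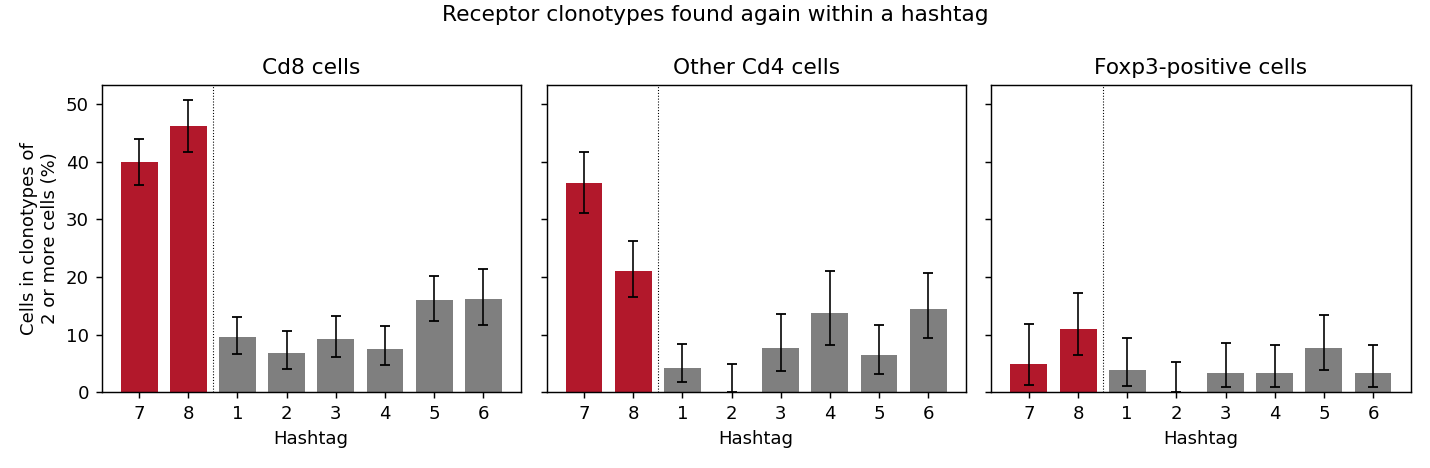
Percent of cells in clonotypes of 2 or more cells of the same hashtag and class (y axis) for each hashtag (x axis), with hashtags 7 and 8 in red and hashtags 1 to 6 in grey; error bars are 95% Clopper-Pearson intervals and cover counting error only. Cd8 cells of hashtags 7 and 8 reach 40% and 46.2% against at most 16.1%, and Foxp3-positive cells overlap.

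In other Cd4 cells the share was 36.3% (31.1% to 41.8%) in hashtag 7 and 21.1% (16.5% to 26.3%) in hashtag 8, against 0% to 14.5% in hashtags 1 to 6. In Foxp3-positive cells it was 4.82% (1.33% to 11.9%) and 11% (6.40% to 17.2%) against 0% to 7.75%, so only hashtag 8 lay above the others there and its interval reached into them. More cells of a hashtag give a repeated receptor more chances to be seen. At equal numbers (242 cells drawn), 77.9% and 77.8% of the drawn Cd8 cells of hashtags 7 and 8 would be distinct clonotypes, against 90.1% to 96.4% in hashtags 1 to 6. For other Cd4 cells (74 drawn) the values were 84.1% and 94.6% against 91.4% to 100%, and hashtag 8 fell inside that range.

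The receptor sequences of large clonotypes are shown because such clonotypes, each a group of cells with 1 receptor, differed in whether their cells carried Gzmk. Each is the beta chain CDR3, the stretch that contacts the antigen, with the capitals marking the codons between the conserved first and last codon.
Hashtag 7 clonotype 1: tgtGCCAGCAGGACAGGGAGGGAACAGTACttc
Hashtag 7 clonotype 2: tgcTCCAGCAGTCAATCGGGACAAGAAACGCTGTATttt
Hashtag 7 clonotype 3: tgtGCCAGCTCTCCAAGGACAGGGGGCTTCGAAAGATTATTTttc
Hashtag 8 clonotype 1: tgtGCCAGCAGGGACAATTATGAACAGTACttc
Hashtag 8 clonotype 2: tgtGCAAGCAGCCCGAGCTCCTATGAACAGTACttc
The beta genes lie on chromosome 6 (GRCm38), TRBV15 of the first clonotype at 41141188 to 41141658. The alpha chain CDR3 of the largest clonotype, which used TRAV13-1 on chromosome 14, follows.
Hashtag 7 clonotype 1 alpha chain: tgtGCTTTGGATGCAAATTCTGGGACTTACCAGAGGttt

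Clonotype 1 of hashtag 7 had 30 cells, all Cd8, and 29 of them had a Gzmk UMI. Clonotype 2 had 28 cells, of which 27 were other Cd4 cells, and all 28 had a Gzmk UMI at 2428 CPM. Clonotype 3 had 22 Cd8 cells, again all with Gzmk. The 3 largest clonotypes of hashtag 7 were thus made almost wholly of cells with Gzmk. In hashtag 8, clonotype 1 (10 Cd8 cells, TRBV19) had no Gzmk UMI, although Ccl5 was at 7122 CPM. By contrast, 8 of the 9 cells of clonotype 2 had one. Clonotype 3 of hashtag 8 (9 Cd8 cells, TRBV19, not listed above) had no Gzmk UMI either, with Ccl5 at 12598 CPM. Of 4452 clonotypes, 36 were seen in more than 1 hashtag and 3 in both hashtags 7 and 8.

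Gzmk was not limited to repeated receptors. Among Cd8 cells whose clonotype was seen in 1 cell, Gzmk was at 544 and 360.0 CPM in hashtags 7 and 8 against 21.2 to 129 CPM in hashtags 1 to 6. Among Cd8 cells of repeated clonotypes it was at 1353 and 468 CPM against 0 to 1149 CPM, from 18 to 58 cells per hashtag in hashtags 1 to 6. In other Cd4 cells with a receptor seen once, Gzmk was at 731 and 213 CPM against 2.38 to 203 CPM. In cells with a receptor seen once, both hashtags were therefore above all others in both classes. Tigit in Cd8 cells with a receptor seen once was at 108 and 87.7 CPM against 7.84 to 38.4 CPM.

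The balance between Foxp3-positive and other Cd4 cells also set hashtags 7 and 8 apart. Foxp3-positive cells made 22.3% (18.6% to 26.3%) of the 2 classes together in hashtag 7 and 33.1% (29.0% to 37.4%) in hashtag 8, against 38.6% to 50.3% in hashtags 1 to 6. Sorting and mixing may set such a share, and a Foxp3 UMI can be missed in a cell, so the part of either was not tested. Without cells that had a Cd8 UMI the shares were 16.5% and 27.2% against 34.6% to 45.6%. Cd8 cells made 60.6% and 54.4% of the 3 classes in hashtags 7 and 8 and 45.7% to 64.9% in hashtags 1 to 6, which overlap. Cd44, the sorting marker, was at 67.4 and 76.2 CPM in Cd8 cells against 53.1 to 65.7 CPM, above all others but not by 1.5-fold, and overlapped in the other 2 classes.

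Hashtags 7 and 8 were not alike in every gene. Of the 442 genes called higher in Cd8 cells, hashtag 7 exceeded hashtag 8 in 333, and the highest of hashtags 1 to 6 was hashtag 5 or 6 in 289. In other Cd4 cells hashtag 7 exceeded hashtag 8 in 90 of 172 genes and hashtag 5 or 6 was the highest of the rest in 110. In Foxp3-positive cells the counts were 95 and 83 of 164. Of the genes called lower, hashtag 7 was below hashtag 8 in 95 of 164, 89 of 155 and 123 of 177. Hashtag 5 or 6 was the lowest of the rest in 81, 80 and 83 of them. These are in Cd8, other Cd4 and Foxp3-positive cells in turn. The same orders were not counted over all tested genes, so these counts have no background share. In Cd8 cells, Gzmk and Ccl5 had their highest values among hashtags 1 to 6 in hashtags 5 and 6.

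Cells outside the 3 classes were set beside them. In the 2622 cells with no Cd4, Cd8 or Foxp3 UMI, 163 of 8563 genes were called higher (1.9%) and 189 lower (2.21%). In the 1072 Cd79a-positive cells, 112 of 7769 genes were called higher (1.44%) and 110 lower (1.42%), and Gzmk, at 329 and 23.9 CPM in hashtags 7 and 8 against 4.31 to 49.7 CPM in hashtags 1 to 6, was not called.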

How the data were processed

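The authors' deposited lymph node matrix holds UMI counts per gene and barcode with the hashtag counts, from a 5′ v2 kit per the labels' protocols. The deposited receptor files hold read and UMI counts per contig. Cell Ranger 3.1.0 and mm10/GRCm38 come from the submitters' processing notes. Members, lists and genes were chosen with earlier results of these data known. Counts were summed per hashtag and class and scaled to CPM with Python 3.11.15 and pandas 2.3.3. A group value is the equal-weight mean over hashtags. Classes need 1 UMI of Foxp3, else of Cd4 without Cd8a or Cd8b1, or of Cd8a or Cd8b1 without Cd4; 303 cells with both and 2622 with neither were left out. Summed UMIs per hashtag ran from 355095 to 729971 (Foxp3-positive), 446555 to 1335203 (other Cd4) and 1446038 to 2584303 (Cd8). Named genes are the 10 highest and 10 lowest called ratios per class among genes with at least 100 UMIs and 50 CPM on 1 side, plus list members. Gene positions are from GENCODE M21; 16 of 110 named genes overlap another coding gene. The heart libraries share 7 and 0 barcodes with this one and were not used here. The calling was tested on simulated data, and edgeR 4.0.16 gave TMM factors and Scanpy 1.11.5 the Scrublet scores. Some items are not reported here.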

Additional observations from a re-analysis of the deposited data

Results flagged for a closer look

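A signal appeared in cells that the comparison leaves out, the 2622 cells with no Cd4, Cd8 or Foxp3 UMI. Gzmk was at 1102 and 275 CPM in such cells of hashtags 7 and 8, against 5.71 to 215 CPM in hashtags 1 to 6. Igfbp4 was at 12.8 and 13.3 CPM against 15.6 to 82.4 CPM. Gzmk was higher and Igfbp4 lower in both hashtags than in any other. Ccl5 (10387 and 3434 CPM against 2452 to 3842 CPM), Tigit (179 and 254 CPM against 39.3 to 211 CPM) and Dapl1 (22.2 and 6.65 CPM against 12.5 to 78.0 CPM) were not called there. The cells are shallow, with a median of 1372.5 UMIs, and were singled out by what they lack.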

How the results depend on the processing

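No paired analysis was possible because the hashtags carry no replicate numbers that pair them. Counts are given as higher then lower, in Cd8, other Cd4 and Foxp3-positive cells in turn, beside 442 and 164, 172 and 155, and 164 and 177 as reported. Thinning to 1000 UMIs gave 209 and 90, 75 and 52, and 68 and 82, and a minimum of 200 UMIs gave 242 and 80, 63 and 64, and 45 and 40. With no filter on low counts there were 703 higher in Cd8 cells, 417 and 237, and 407 and 279. Cells with Xist and no Y-linked UMI gave 269 and 101, 99 and 65, and 81 and 54. Leaving out cells with further B cell genes gave 97 lower in Cd8 cells, 108 and 98, and 60 and 108. Cd8 cells without a Gzmk UMI gave 247 higher. Leaving out 1 hashtag gave 436 to 935 and 155 to 441, 163 to 504 and 161 to 539, and 173 to 421 and 184 to 782; counts passed 1.5 times the reported one without hashtag 8 in every class and direction, without hashtag 7 in all but the genes higher in Cd8 cells, and without hashtag 6 for genes higher in other Cd4 cells (268).

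With clonotypes defined by the beta chain, repeated receptors reached 57.5% and 58.6% of Cd8 cells of hashtags 7 and 8 against at most 24.6%, 46.0% and 28.8% of other Cd4 cells, and 15.6% and 18.6% of Foxp3-positive cells against at most 15%. In Foxp3-positive cells the share was 0% in hashtag 7 and at most 0% in hashtags 1 to 6 with further B cell genes excluded, 2.90% in hashtag 8 with 2 UMIs of the class gene, and at most 3.81% without hashtag 5. The Foxp3-positive share was 14.1% and 19.9% against at least 28.4% with further B cell genes excluded, and 27.9% in hashtag 8 with 2 UMIs.

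These called ratios changed sign. In Foxp3-positive cells, Fscn1 was -3.85 and Tmem176b -0.89 without cells with Cd8 UMIs, Prf1 -0.17 after thinning and -0.58 in cells with Xist and no Y-linked UMI, where Gbp3 was -0.066, and Birc5 -0.21 with stricter hashtag limits, -0.38 with paired receptor chains and -0.19 without Gzmk-positive cells. Without Gzmk-positive cells, Ccl3 was -0.40 in other Cd4 cells, and Ccl3 was -0.44, Ccl4 -0.38, Penk -0.42 and Nr4a2 -0.60 in Cd8 cells. The cause was not tested. The sign held under every alternative for 54 of 58 called named genes in Cd8 cells, 35 of 36 in other Cd4 cells and 30 of 35 in Foxp3-positive cells, while the call held under all for 10, 2 and 1. After thinning 34, 13 and 11 of them were still called, and in cells with Xist and no Y-linked UMI 29, 14 and 12. Scrublet marked 0 of 12804 cells, so removing its doublets gave no value; leaving out the 8% of cells with the highest scores was added after seeing the data.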
